A study of Mus musculus with 8 samples.

Results

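The cytosolic ribosomal protein genes encode the proteins of the 60S and the 40S subunit of the ribosome that translates nuclear-encoded mRNAs. Probes were chosen by the gene name in the array files, which had to be Rpl, Rplp, Rps or Rpsa with the usual number and ending. This gave 188 of 55681 probes other than controls, for 83 genes. After leaving out probes well above background on fewer than 4 of 8 arrays, 184 probes of 81 genes remained among the 37314 probes tested. The rule used gene names and no measured values.

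The hypothalami were those of 8 adult male mice of the strain C3H/HeN. In the MS group, 4 mice had been separated from their mother each day between PND 2 and PND 14 while the mother was stressed at unpredictable times, and 4 control mice had been reared without this. The tissue was the hypothalamus, the region at the base of the brain that governs feeding and pituitary hormones. All 8 were weaned at PND 21, carried no engineered allele that the labels name, and gave 200 ng of RNA each to 1 array, so that a value is that of 1 mouse. The paper states that the tissue was taken after operant training for sweetened milk and after a fast. The arrays lay on 1 slide, with MS 5.3, MS 7.2, control 8.2 and control 8.4 in row 1 and MS 7.1, MS 7.6, control 6.2 and control 8.5 in row 2. What the number before the dot means is not stated in the sources, and no number was shared by both groups, so that litter or cage and group cannot be told apart. All p-values rest on the spread between single mice of a group. Except where the number is named as a block, they treat the mice as independent. MS 7.1, 7.2 and 7.6 share a number, as do control 8.2, 8.4 and 8.5, so that these mice may not be independent.

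A ribosome needs about equal amounts of nearly all its proteins, and their mRNAs are among the most abundant of a cell. In mammals most of these mRNAs begin at a cytosine followed by an unbroken run of pyrimidines, the 5′ terminal oligopyrimidine (TOP) motif, through which mTOR and the RNA-binding protein LARP1 control their translation together. A few genes have a paralog. Rpl3l, the paralog of Rpl3, is restricted to skeletal and heart muscle, and Rpl10l and Rpl39l, the paralogs of Rpl10 and Rpl39, belong to male germ cells, while Rpl7l1, Rpl22l1 and Rps27l are expressed more widely.

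Start sites are shown for 6 of the members in which the search described below found a pyrimidine run, since the TOP motif is what the family's mRNAs are known for. The sequences are RefSeq promoters of the build GRCm38.p6, from 8 bases before the annotated start to 20 from it on, with the run in capitals.
Rpl27a (chr7:109519187-109519214, + strand): tgagctCCTCCCTTTTCCCTTTCTgcca
Rpl15 (chr14:18270967-18270994, - strand): aaagcCTTCTTCCTTTCCTCTggcggca
Rpl13a (chr7:45128726-45128753, - strand): tgcgacaagaCCTCCTCCTTTCCCaggc
Rps6 (chr4:86857348-86857375, - strand): agtcgggCCTCTTTTTCgtgacgcctcc
Rpl28 (chr7:4792957-4792984, + strand): tcgtgtCTCTCTTTCCgtctccggccgc
Rpl22l1 (chr3:28805500-28805527, + strand): gcaagcccgttCTCTTCCCacggctgca
The search was for a C followed by at least 4 bases that were each C or T, starting within 3 bases of the annotated start, on the strand of the gene. It was met in 25 of the 62 members in the promoter table (40.3%), against 3651 of all 27025 genes (13.5%). Among the listed translation factors with TOP mRNAs, 4 of 13 had such a run (30.8%). An annotated start a few bases off would hide a run, so that no match says nothing about a gene.

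The probes are 60-base oligos, and those of Rpl39 and Rpl22 are shown because probes of the same gene gave different values below. The Rpl3l and Rpl3 probes are shown as the pair of a muscle paralog and its common form. Coordinates are those of the array files (mm9), and capitals mark AATAAA, the usual polyadenylation signal.
Rpl39 brightest (chrX:34622696-34623990, - strand): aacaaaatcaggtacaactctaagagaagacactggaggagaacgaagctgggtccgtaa
Rpl39 middle (chrX:34622618-34622677, - strand): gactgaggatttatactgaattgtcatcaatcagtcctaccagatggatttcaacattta
Rpl39 dimmest (chrX:34622515-34622574, - strand): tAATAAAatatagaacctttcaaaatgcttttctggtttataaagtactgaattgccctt
Rpl22 brightest (chr4:151706515-151706574, + strand): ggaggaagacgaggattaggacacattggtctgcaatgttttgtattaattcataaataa
Rpl22 dimmest (chr4:151708012-151708071, + strand): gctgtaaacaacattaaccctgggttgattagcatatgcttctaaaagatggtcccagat
Rpl3 (chr15:79908211-79908217, - strand, where the file places only 7 bases): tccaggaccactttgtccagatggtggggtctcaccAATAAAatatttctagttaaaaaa
Rpl3l (chr17:24872413-24872681, + strand): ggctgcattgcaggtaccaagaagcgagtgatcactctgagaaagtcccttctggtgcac
AATAAA stood in 55 of the 188 member probes (29.3%) and in 5602 of all 55681 (10.06%). Its reverse complement TTTATT stood in 5 member probes (2.66%) and in 2082 of all (3.74%). The dimmest Rpl39 probe lies 3′ of the other Rpl39 probes, and the dimmest Rpl22 probe 3′ of the brightest. In the files 45 member probes span more than 60 genomic bases, as a probe across a splice junction does, among them the brightest Rpl39 probe and that of Rpl3l.

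The number of probes differed between genes. A single probe represented 24 genes, and 59 genes had several, up to 7. In 25 genes some probes overlapped each other (38 pairs), so that these are not separate measurements. The accession or symbol of 187 member probes matched RefSeq, and 11 probes of 5 genes (Rpl13, Rpl36, Rps27, Rps29 and Rps4x) were placed on another chromosome than the RefSeq gene. For Rps27 and Rps29 this held for every probe. Ribosomal protein genes have many processed copies in the genome, and a near-identical copy could contribute to such signals, so the values of these genes are uncertain in that respect.

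No ribosomal protein gene passed the test between MS and control hypothalami, yet all 81 had a higher mean in the MS group. Values are log2 intensities relative to the 75th percentile of the array, so that they compare mice at 1 probe and not 1 probe with another. With the brightest probe of each gene, the log2 fold changes (MS minus control) had a median of 0.099 and lay between 0.032 (Rpl5) and 0.39 (Rpl3l), and between 0.032 and 0.18 in the 77 common forms. Of all tested probes 49.5% lay above 0, with a median of -0.0012. No probe of the members and 0% of all tested probes had an adjusted p under 0.05 (limma with Benjamini-Hochberg adjustment, smallest adjusted p among members 0.989).

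At an unadjusted p under 0.05, 1 of 184 member probes (Rpl3l) was higher in MS mice, against 1% of all tested probes, and no member probe was lower, against 2.4%. The 4 MS and the 4 control values did not overlap at 1 member probe, again that of Rpl3l. Over all tested probes such separation was found in 0.788% with MS higher and in 1.24% with MS lower. The 95% confidence interval excluded a 1.5-fold difference in either direction for 80 of the 81 genes and for 84% of all tested probes. The exception was Rpl3l.

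The direction shared by the members rested on single mice. MS 7.6 had the highest value of all 8 mice in 77 of 81 genes, against 23.5% of all tested probes. MS 5.3 had the lowest in 16 genes, against 13.6% of all tested probes, and control 8.5 in 63 genes, against 22.3%. Relative to the mean of the 8 mice, the median gene lay at 0.31 in MS 7.6, at -0.11 in MS 5.3, at 0.010 in MS 7.1 and at -0.022 in MS 7.2. In the control group it lay at 0.024 in control 6.2, at -0.044 in control 8.2, at -0.017 in control 8.4 and at -0.16 in control 8.5. The other 3 MS mice thus lay within the range of the control mice.

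**Figure D1:**
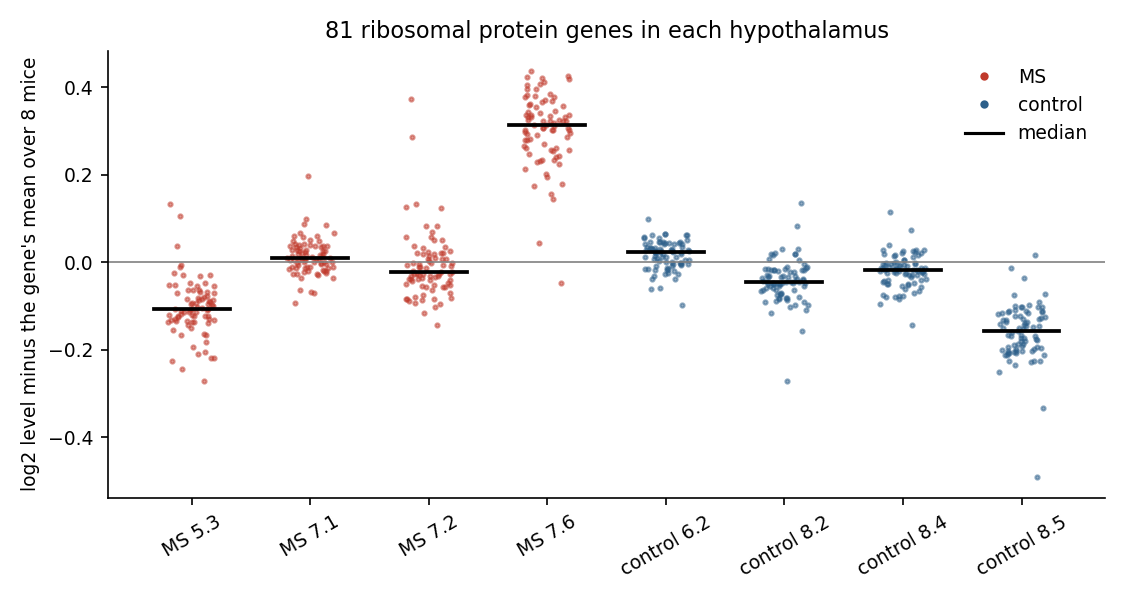
Each point is 1 of 81 ribosomal protein genes (brightest probe), as log2 level minus the gene's mean over the 8 mice (y axis), by mouse (x axis), with MS mice in red, control mice in blue and the median as a bar. The cloud of MS 7.6 stands highest (median 0.31) and that of control 8.5 lowest (median -0.16).

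Without MS 7.6 the median log2 fold change was 0.013 and 55 of 81 genes lay above 0, against 48.1% of all tested probes. Without control 8.5 it was 0.062 with 81 genes above 0, against 46.6% of all tested probes. Without both mice, a choice made after seeing the data, the median was -0.021 with 17 genes above 0. Of all tested probes 42.8% then lay above 0, with a median of -0.016. The split by slide row showed the same mice, since both lay in row 2. In row 2 alone the median was 0.23 with 81 genes above 0, and in row 1 alone it was -0.031 with 18 genes above 0. Of all tested probes 52.9% lay above 0 in row 2 and 43.6% in row 1.

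**Figure D2:**
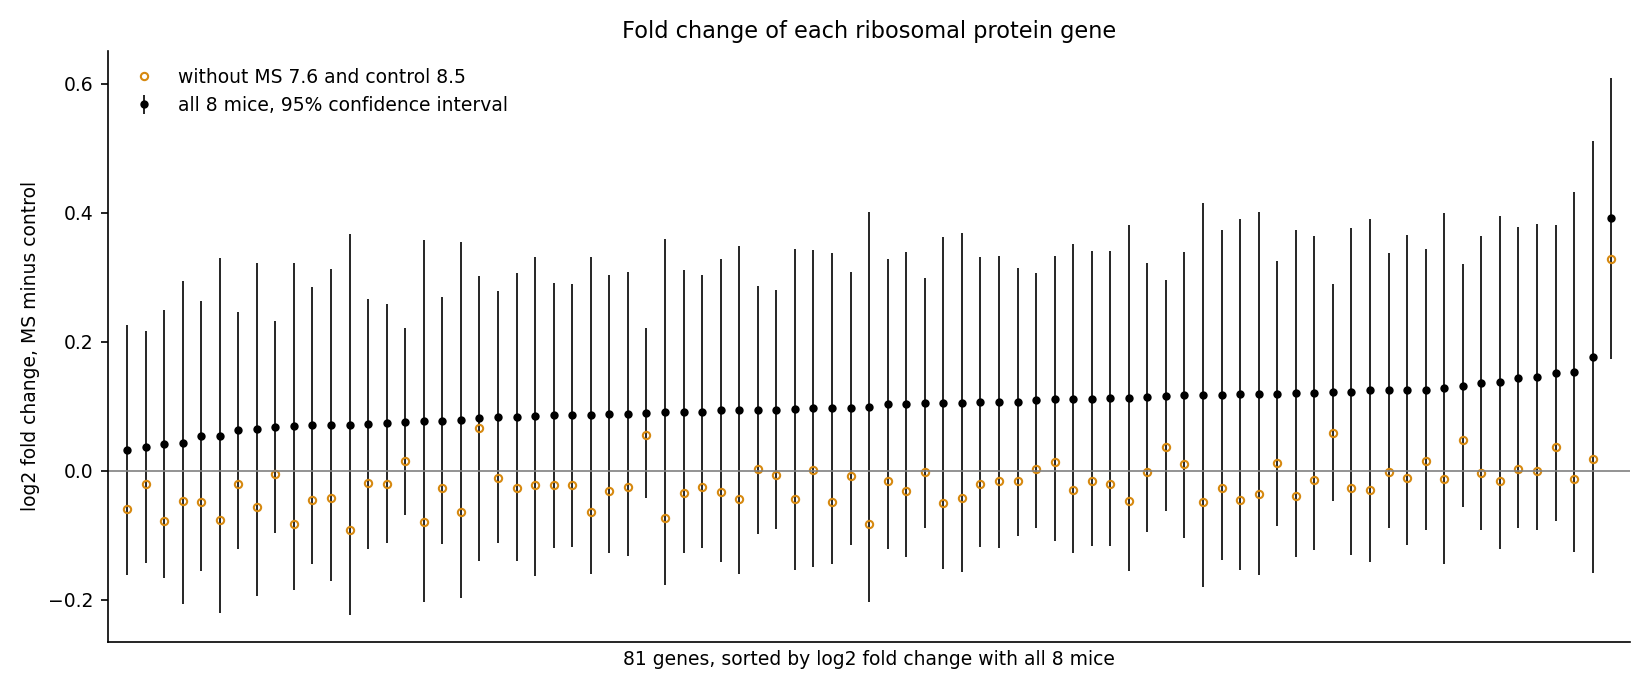
Log2 fold change (y axis, MS minus control) of each of 81 ribosomal protein genes (x axis, sorted by this value), with all 8 mice (black, bars are 95% confidence intervals of limma) and without MS 7.6 and control 8.5 (orange circles). All black points lie above 0, whereas 17 orange circles do.

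The spread within the groups showed the same mouse. The SD between MS mice exceeded that between control mice in 78 of 81 genes (median SD 0.19 in MS and 0.086 in control mice, n = 4 each), against 57.6% of all tested probes. Without MS 7.6 this held in 32 genes, against 44.6% of all tested probes, with a median SD of the genes of 0.070 in the MS group.

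The values were similar for both subunits. The 43 genes of the large subunit had a median log2 fold change of 0.10 (0.032 to 0.15), the 31 genes of the small subunit 0.11 (0.037 to 0.18), and the 3 proteins of the P stalk, the lateral arm that recruits elongation factors, 0.072 (0.054 to 0.086). MS 7.6 was the highest mouse in 42 genes of the large subunit, 30 of the small subunit and 3 of the P stalk. Without MS 7.6 the median was 0.013 for the large and for the small subunit and 0.00094 for the P stalk.

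Among proteins of the small subunit, Rps6, the substrate of the S6 kinases downstream of mTOR, measured 6.66, 6.68, 6.63 and 7.03 in MS 5.3, 7.1, 7.2 and 7.6, against 6.75, 6.62, 6.65 and 6.54 in control 6.2, 8.2, 8.4 and 8.5. MS 7.6 stood apart, and the other MS mice lay among the controls (log2 fold change 0.11, SE 0.100, adjusted p = 0.989 in limma). Rpsa, which also serves as the laminin receptor, measured 7.27, 7.34, 7.27 and 7.62 in the MS mice and 7.37, 7.38, 7.36 and 7.23 in the control mice, in the same order. The highest value was again in MS 7.6 and the lowest in control 8.5 (log2 fold change 0.041, SE 0.091). Rps19, the gene most often mutated in Diamond-Blackfan anemia, averaged 5.22 ± 0.22 in MS and 5.08 ± 0.10 in control mice (SD, n = 4 each), and Rps27a, which is made as a fusion with ubiquitin, averaged 7.33 ± 0.22 in MS and 7.23 ± 0.094 in control mice. Both differences were smaller than the SD between MS mice, and without MS 7.6 the log2 fold changes were 0.032 for Rps19 and -0.0015 for Rps27a.

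Rps4x, the X-linked form of RPS4, and Rps7 were among the 5 common forms of smallest p. Rps4x measured 5.28, 5.43, 5.48 and 5.65 in the MS mice, against 5.38, 5.35, 5.32 and 5.27 in the control mice. The groups overlapped through MS 5.3 alone (log2 fold change 0.13, SE 0.082, and 0.068 without MS 7.6). Rps7, which binds MDM2 like several other ribosomal proteins, had a log2 fold change of 0.12 (SE 0.078), and of 0.078 without MS 7.6. Rps21, singled out after its values were seen, had the widest spread between control mice, with 4.68, 4.71, 5.03 and 4.90 in the MS mice and 4.68, 4.82, 4.85 and 4.25 in the control mice. Its low value was that of control 8.5, and its log2 fold change of 0.18 (SE 0.15) was the highest of the common forms.

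In the large subunit, Rpl5 and Rpl11, which form with 5S RNA the particle that binds MDM2 when ribosome assembly is disturbed, differed little between groups. Rpl5 averaged 4.17 ± 0.16 in MS and 4.14 ± 0.040 in control mice (SD, n = 4 each; log2 fold change 0.032, SE 0.084). Rpl11 averaged 7.66 ± 0.23 in MS and 7.55 ± 0.095 in control mice (log2 fold change 0.11, SE 0.12). Rpl13a, the subunit protein that can be released to silence translation of inflammatory mRNAs, and Rpl10, a late-joining protein of the subunit interface, had log2 fold changes of 0.12 (SE 0.11) and 0.084 (SE 0.11). In the P stalk the values were 0.072 for Rplp0 (SE 0.084), 0.054 for Rplp1 (SE 0.12) and 0.086 for Rplp2 (SE 0.089).

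Rpl4, Rpl27 and Rpl36a were the large subunit genes among the 5 common forms of smallest p. Rpl4, which lines the exit tunnel, measured 5.45, 5.48, 5.64 and 5.71 in the MS mice and 5.49, 5.48, 5.43 and 5.40 in the control mice (log2 fold change 0.12, SE 0.073, unadjusted p = 0.134, adjusted p = 0.989, limma). Rpl27 measured 6.02, 6.09, 6.12 and 6.08 in the MS mice, against 6.00, 6.06, 6.01 and 5.89 in the control mice (log2 fold change 0.089, SE 0.058). In Rpl27 MS 7.6 was not the highest mouse, and its deviation from the mean of 8 mice was 0.044, the smallest among the common forms. Rpl36a had a log2 fold change of 0.15 (SE 0.100). Without MS 7.6 the log2 fold change was 0.074 for Rpl4, 0.090 for Rpl27 and 0.075 for Rpl36a. No common form had a negative log2 fold change, so that none could be named in that direction.

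The deviation of MS 7.6 moved with the brightness of probes. Its array was the dimmest, with a 75th percentile of 499 against 751 to 902 in the other mice, and the fewest probes well above background (34079 against 34948 to 39601). Before scaling, its median tested probe stood at -0.62 relative to the mean of 8 mice on the log2 scale, and its median ribosomal protein gene at -0.30. The brightest probes of 78 of the 81 genes belonged to the brightest 10% of tested probes. The other probes of this class had a median deviation of 0.11 in MS 7.6 and -0.086 in control 8.5, and the other probes among the brightest 373 had 0.25 in MS 7.6 and -0.089 in control 8.5. The dimmest 10% lay at -0.10 in MS 7.6. The part of probe brightness in the values of the members was not tested.

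**Figure D3:**
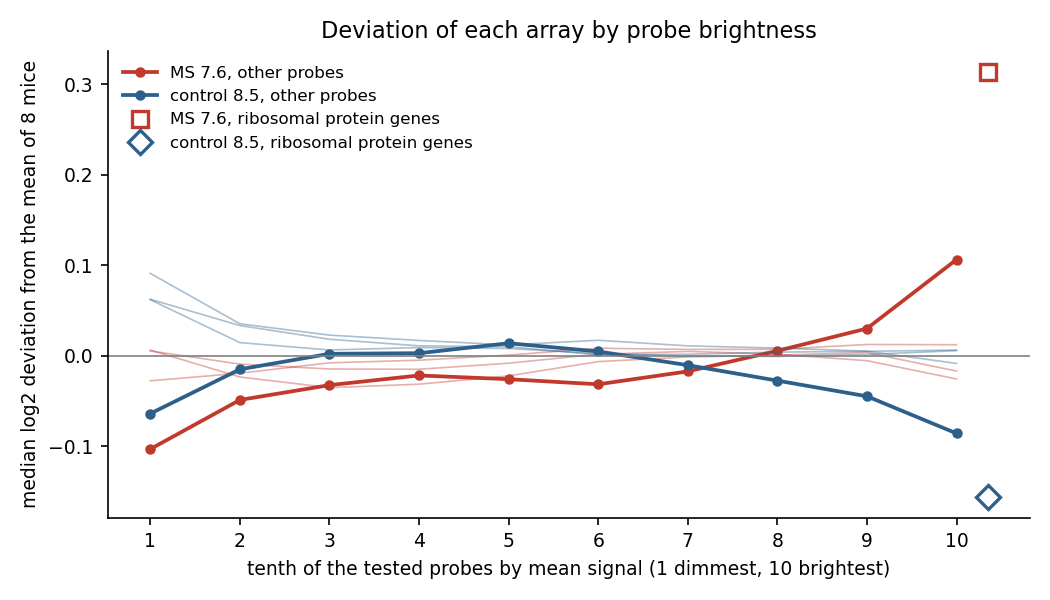
Median log2 deviation from the mean of 8 mice (y axis) in 10 classes of tested probes by mean signal (x axis, dimmest first), ribosomal protein probes left out, with MS mice in red and control mice in blue, MS 7.6 and control 8.5 drawn thick, and the median of 81 ribosomal protein genes for these mice as open symbols. MS 7.6 lies at -0.10 in the dimmest and at 0.11 in the brightest class, and its ribosomal protein genes at 0.31.

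Other scalings changed the size of the deviation. The median ribosomal protein gene of MS 7.6 lay at 0.10 after quantile normalization, at 0.15 after cyclic loess (chosen after seeing the data), at 0.25 after normexp background correction and at 0.10 in the authors' table, which holds 80 of the genes. With quantile normalization the median log2 fold change was 0.042 with 77 of 81 genes above 0, and in the authors' table it was 0.043 with 76 of 80. MS 7.6 remained the mouse with the highest median in each. Agilent's positive control probes in the range of the members' signals deviated by -0.27 and -0.26 in MS 5.3, by -0.045 and 0.012 in MS 7.6 and by 0.23 and 0.22 in control 8.5. Those brighter than this range deviated by -0.17 and -0.057 in MS 5.3, by 0.19 and 0.51 in MS 7.6 and by 0.10 and -0.012 in control 8.5. In these mice the median member lay at -0.11, 0.31 and -0.16.

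Probes of the same gene differed in the deviation of MS 7.6. The 160 member probes in the brightest 10% had a median deviation of 0.30 (0.044 to 0.44) and MS 7.6 was the highest mouse in 157, whereas the 24 dimmer member probes had a median of 0.20 (-0.058 to 0.39) and MS 7.6 was the highest mouse in 13. In 19 genes with probes of both kinds, the brightest probe deviated more than the dimmest in 16, with medians of 0.31 and 0.20. Among tested probes other than members, the median deviation of MS 7.6 was 0.11 in the brightest 10%. It was between -0.049 and 0.030 in the classes between the dimmest and the brightest 10%. Over all tested probes MS 7.6 was the highest mouse in 23.5%.

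The probes of Rpl39 and Rpl22 shown above are examples. The brightest Rpl39 probe deviated by 0.36 in MS 7.6 and had a log2 fold change of 0.12 (SE 0.12). The dimmest Rpl39 probe measured -3.27, -3.23, -3.19 and -3.30 in the MS mice and -2.995, -3.22, -3.34 and -3.38 in the control mice, with MS 7.6 inside the range of the controls (log2 fold change -0.014, SE 0.089). The dimmest Rpl22 probe had a deviation of -0.00090 in MS 7.6, against 0.28 at the brightest. Conversely, the dimmest probes of Rps25 and Rps3 deviated by 0.39 and 0.37 in MS 7.6, more than the brightest probes of these genes. The probes were not placed on exons or mRNA ends, so that bright and dim probes of a gene may not read the same transcripts.

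**Figure D4:**
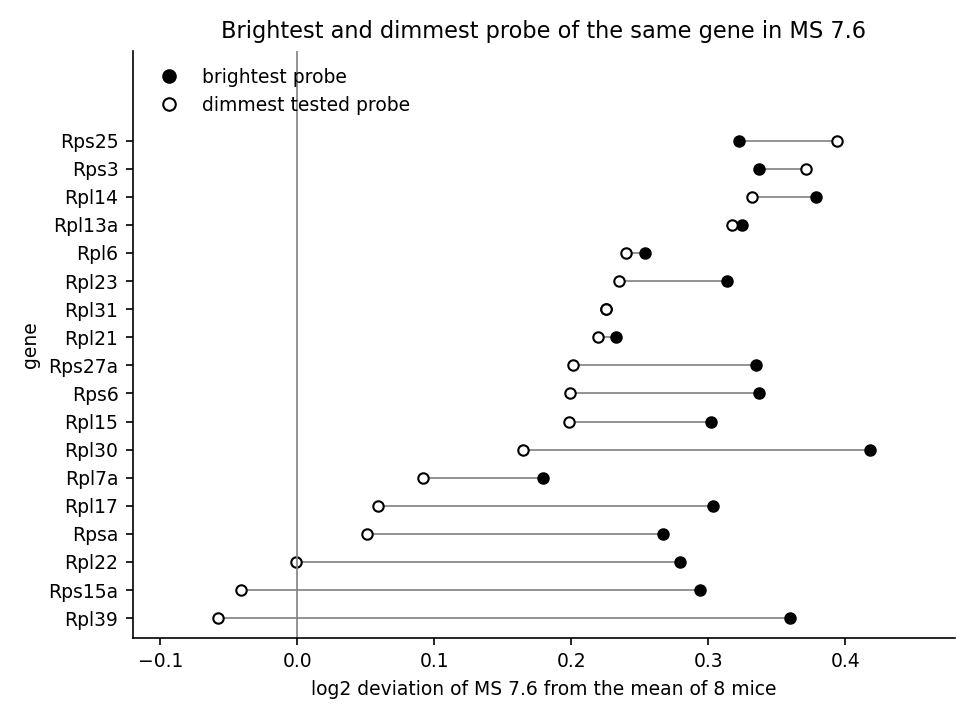
Log2 deviation of MS 7.6 from the mean of 8 mice (x axis) for the brightest (filled) and the dimmest tested probe (open) of 18 of the 19 genes (y axis) that had probes inside and outside the brightest 10% of tested probes. The filled point lies further right in 15 of the 18.

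In 52 of 57 genes with several tested probes, all probes had log2 fold changes on the same side of 0, and the median range within a gene was 0.041. Among the exceptions were Rpl30, Rpl39, Rpl7a and Rpsa, in each of which a dimmer probe was slightly below 0. Over all 184 probes, 178 lay above 0.

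Rpl3l had the largest log2 fold change of the members. That its groups did not overlap was known from earlier results of these data when the comparisons were set. Its probe measured -4.70, -4.80, -4.46 and -4.58 in the MS mice, against -4.93, -5.10, -4.91 and -5.17 in the control mice. All MS mice lay above all control mice, and MS 7.6 was not the highest (log2 fold change 0.39, SE 0.095, 95% confidence interval 0.17 to 0.61, unadjusted p = 0.0032, adjusted p = 0.989, limma). The signal was faint. It was well above background in 4 MS and in 3 control mice, and the processed intensities before scaling were 31.2, 28.9, 41.0 and 20.8 in the MS mice and 25.2, 24.9, 26.9 and 20.9 in the control mice, which overlap. With normexp background correction the log2 fold change was 0.20, and in the authors' table it was 0.23. Other scalings gave slightly larger values, with 0.42 after quantile normalization, 0.42 after cyclic loess and 0.41 after median scaling.

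Muscle markers gave no uniform picture beside Rpl3l. Of 12, 10 were above background on all 8 arrays, while Ckm, the creatine kinase of muscle, and Actc1, cardiac actin, were above it on none. Their summed linear level ranged over 13.7 to 16.1 in MS and over 15.1 to 15.8 in control mice. Of the 10 tested, 7 had a log2 fold change above 0 (median 0.15), with 0.35 for Myh2 (unadjusted p = 0.0431, adjusted p = 0.989, limma) and 0.36 for Myh6, myosin heavy chains, and -0.16 for Myl2, a myosin light chain. Their median was 0.12 without MS 7.6 and 0.033 without control 8.5, where Rpl3l was at 0.37 and 0.35. Their part in the Rpl3l value was not tested.

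Within an array, the ratio of a paralog to its common form takes out what both share, such as a scaling factor. It keeps a deviation that differs between dim and bright probes, as seen above in MS 7.6. The mean log2 ratio in MS mice was -11.8 for Rpl3l, -8.17 for Rpl7l1, -4.01 for Rps27l and 1.02 for Rpl22l1. The part of probe brightness in the ratios was not tested. An exact permutation test over the 70 splits of 8 mice, two-sided, compared the log2 ratios of 4 usable pairs, and the smallest p this design allows is 0.0286. Rpl3l over Rpl3, a core protein near the peptidyl transferase center, was -11.65, -11.91, -11.53 and -12.00 in MS 5.3, 7.1, 7.2 and 7.6, against -11.99, -12.10, -11.95 and -12.17 in the control mice. The pair was set with the separation of Rpl3l already known, so that its p gives no independent support. The groups of the ratio overlapped (difference 0.28, exact permutation p = 0.0857, adjusted over the 4 pairs 0.343). It was higher in row 1 alone (0.43) than in row 2 alone (0.13), and ranged from 0.20 to 0.35 when each mouse was left out in turn. With normexp background correction it was 0.12. With quantile normalization the log2 fold changes of the genes themselves were 0.42 for Rpl3l and 0.040 for Rpl3.

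The other pairs differed by less than the spread between mice. The difference in the log2 ratio was 0.019 for Rpl7l1 over Rpl7 (exact permutation p = 0.886), 0.033 for Rpl22l1 over Rpl22 (p = 0.571) and 0.0047 for Rps27l over Rps27 (p = 1), with adjusted exact permutation p = 1 in each. The ratio of Rps27l, a p53 target in mammals, to Rps27 was -3.86, -3.95, -3.96 and -4.29 in the MS mice and -3.99, -4.03, -4.06 and -3.99 in the control mice. MS 7.6 was thus the lowest of 8 and the other MS mice the highest, since Rps27 deviated by 0.42 and Rps27l by 0.15 in MS 7.6. Rpl22l1 and Rpl22, whose protein represses Rpl22l1 in mice, deviated alike in MS 7.6, by 0.28 each, and their ratio averaged 1.02 ± 0.044 in MS and 0.985 ± 0.11 in control mice (SD, n = 4 each).

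**Figure D5:**
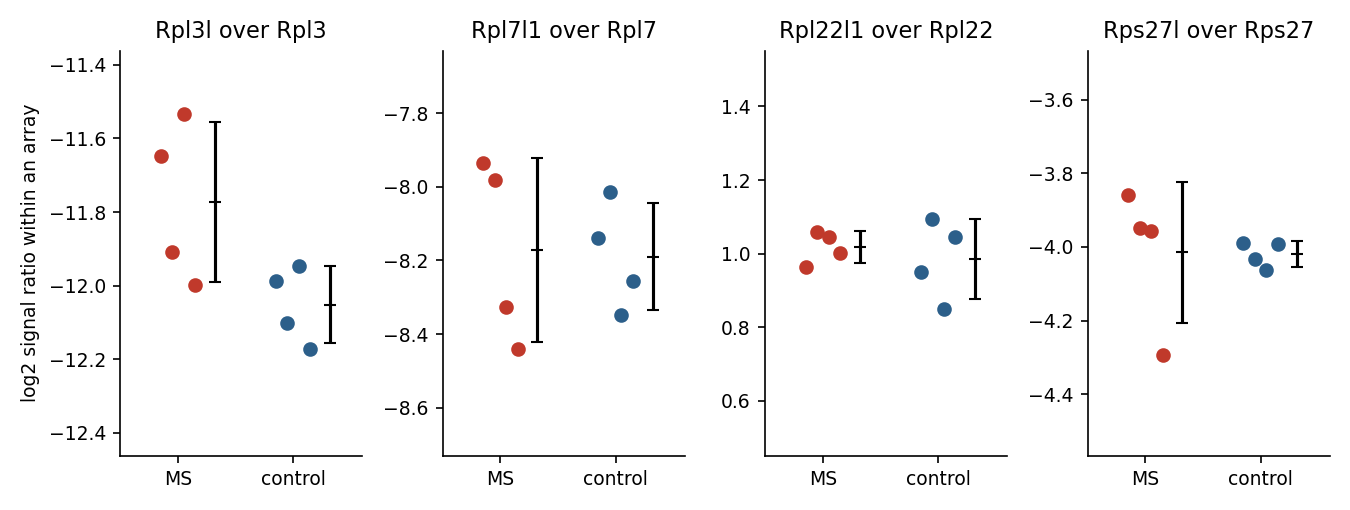
Log2 ratio of the signals of a paralog and its common form within an array (y axis, the same span of 1.1 in each panel) for 4 pairs, with MS mice in red, control mice in blue, and mean and SD (n = 4) beside them. The ratio of Rpl3l to Rpl3 was higher in MS mice by 0.28 with overlap, and MS 7.6 lay lowest for Rps27l over Rps27.

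The longest run of bases shared by the brightest probes of a pair was 5 or 6 on the same strand. Only these probes were compared and not the mRNAs. Whether a paralog's probe also binds the mRNA of its common form was not tested. Rpl10l and Rpl39l, the germ cell paralogs, were above background on no array, as were the protamine-stage genes Tnp2 and Odf1, while Prm1 and Prm2 were tested, with log2 fold changes of -0.015 and -0.019. The remaining untested probe belonged to a gene with another probe that was tested. A pair with Rps4l was not analysed here.

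Other genes of the translation machinery were counted from fixed lists, and none of their genes (brightest probe) passed the test or had an unadjusted p under 0.05. Fau, a fusion of a ubiquitin-like protein with a ribosomal protein of the small subunit, had a log2 fold change of 0.12 and was highest in MS 7.6. Of 19 translation factors and related genes with TOP mRNAs, 18 lay above 0 (median 0.067), among them Eef1a1, the factor that brings aminoacyl-tRNA to the ribosome, at 0.10 (SE 0.075), with Pabpc1, the poly(A)-binding protein, at -0.090 (SE 0.063). MS 7.6 was the highest mouse in 17 of them, and without it 14 lay above 0 with a median of 0.014.

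Of 76 mitochondrial ribosomal protein genes, which serve the separate ribosome of mitochondria, 61 lay above 0 with a median of 0.035. Their median deviation was 0.11 in MS 7.6 and -0.13 in control 8.5, and without MS 7.6 the median was 0.0039. The 30 genes of ribosome biogenesis had a median of -0.0021 with 14 above 0 and a deviation of -0.026 in MS 7.6. The 12 regulators of TOP mRNAs, such as Mtor and Larp1, had a median of -0.013 with 5 above 0 and a deviation of -0.13 in MS 7.6. The members with a pyrimidine run at the start had a median of 0.097 (25 genes) and those without 0.11 (35 genes).

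Tissue and cell type markers were read once for the arrays. All 14 hypothalamic markers were tested, 13 of them above background on all 8 arrays. Their summed level was 453 to 638 in MS and 560 to 636 in control mice. Gene by gene, 5 of the 14 had a log2 fold change above 0 (median -0.070, from -1.45 for Hcrt to 0.22 for Agrp). Pituitary genes summed to 298 in control 6.2, against 22.1 to 33.4 in MS mice and 20.1 to 38.1 in the other control mice. All 7 tested pituitary genes had a log2 fold change below 0 (median -0.84), among them Tshb, a subunit of thyrotropin, at -2.19 (unadjusted p = 0.0352, adjusted p = 0.989, limma). Without control 6.2 their median was -0.42, with Prl and Gh, prolactin and growth hormone, at 0.93 and 0.85. Control 6.2 lay at 0.024 for the median member, and without it the median log2 fold change of the members was 0.13. Neuronal markers summed to 222 to 254 in MS and 207 to 237 in control mice. The sum was highest in MS 7.6, as were the sums of astrocyte and microglia markers. Gene by gene, MS 7.6 was the highest mouse in 3 of 4 neuronal, 2 of 4 astrocyte and 2 of 4 microglia markers. The part of these markers in the members' values was not tested.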

How the data were processed

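The authors deposited, for each of 8 mice, the scanner output of 1 single-color Agilent array, that is, an intensity per spot from Agilent Feature Extraction 10.10.1.1. This processed intensity is background-subtracted and corrected for gradients, and weak spots carry a substitute value. They also deposited a table of log2 values per probe, for which the submitters' notes name limma without saying how arrays were normalized. It was used as an alternative.

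Further steps used limma 3.58.1 in R 4.3.3, and data.table (version 1.17.8) read the files. Control spots and outlier flags were left out, spots of a probe were averaged on the log2 scale, and values were set relative to the 75th percentile of their array. Probes that exceeded background on 4 or more of 8 arrays entered lmFit and eBayes, two-sided, with Benjamini-Hochberg adjustment at 0.05 over all 37314 probes. 18 of these lacked a value on at least 1 array. The brightest tested probe stood for a gene. Values of some single genes are not reported here. Intervals are 95% confidence intervals of limma. The fit was tested on simulated data with independent noise and changes larger than any of the members. That test does not bear on small differences shared by many genes.

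The members and lists were chosen with earlier results of these data known. Genes were named by a rule: each measured paralog with its common form, 12 genes of known role (Rps6, Rpsa, Rplp0, Rplp1, Rplp2, Rpl5, Rpl11, Rpl13a, Rps19, Rps27a, Rpl10, Rps4x) and the 5 common forms of smallest p in each direction. Alternatives were quantile and median scaling, normexp with an offset of 50, cyclic loess, other filters, the authors' table, slide row or mouse number as a block, each row alone, another variance model, all probes, and leaving out mice. The number of arrays limits the precision. Lists of choroid plexus, blood and oligodendrocyte markers had 2, 2 and 2 of 6, 3 and 4 genes above 0.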

Additional observations from a re-analysis of the deposited data

Results flagged for a closer look

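Of 58 groups of 4 mice checked for a mouse far from the other 3 (24 named genes, 4 ratios of paralogs and the median of the members, in MS and in control mice), 3 were past the limit. Chance marks about 1 in 20 independent groups, and these groups are not independent, since all hold the same mice. Rplp2 stood at 7.78 in MS 7.6, with the next MS mouse at 7.44. Rps6 stood at 7.03 in MS 7.6, with the next MS mouse at 6.68. Rpsa stood at 7.23 in control 8.5, with the next control mouse at 7.36. All are log2 levels relative to the 75th percentile of the array, at the brightest probe.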

How the results depend on the processing

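No member probe passed the test under any alternative. With the mouse number as a random block, the smallest adjusted p among members was 0.326 (limma with Benjamini-Hochberg adjustment). Their median log2 fold change was then 0.13. It was 0.15 without MS 5.3 and 0.13 without control 6.2, the mice whose number no other mouse has. With mice as independent the smallest adjusted p was 0.989 (limma), so that the block was not the more cautious setting here. When each mouse was left out, the median log2 fold change of the members ranged over 0.013 to 0.15, lowest without MS 7.6, with 55 to 81 genes above 0. It was -0.031 with 18 genes above 0 in row 1 of the slide alone and -0.021 with 17 above 0 without MS 7.6 and control 8.5 (chosen after seeing the data, like cyclic loess), and 178 of 184 probes lay above 0 when all probes were counted. No paired analysis was possible because the groups share no mouse number.

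In row 1 alone the log2 fold changes were -0.029 for Rpl10, -0.071 for Rpl11, -0.052 for Rpl13a, -0.054 for Rpl22, -0.023 for Rpl22l1, -0.0036 for Rpl3, -0.056 for Rpl5, -0.041 for Rpl7, -0.0097 for Rplp0, -0.13 for Rplp1, -0.034 for Rplp2, -0.040 for Rps19, -0.10 for Rps27, -0.074 for Rps27a and -0.10 for Rpsa. Without MS 7.6 and control 8.5 they were -0.023 for Rpl10, -0.046 for Rpl11, -0.015 for Rpl13a, -0.056 for Rpl22, -0.060 for Rpl5, -0.021 for Rpl7, -0.018 for Rplp0, -0.077 for Rplp1, -0.022 for Rplp2, -0.016 for Rps19, -0.092 for Rps27, -0.044 for Rps27a, -0.016 for Rps6 and -0.077 for Rpsa. Quantile normalization gave -0.017 for Rplp1 and -0.0040 for Rpsa, the authors' table -0.0088 for Rpl5 and -0.028 for Rplp1, and cyclic loess -0.0015 for Rpl5, -0.0066 for Rplp1 and -0.023 for Rpsa. When each mouse was left out, the range was -0.025 to 0.13 for Rpl10, -0.00055 to 0.17 for Rpl11, -0.019 to 0.14 for Rpl22, -0.041 to 0.082 for Rpl5, -0.049 to 0.15 for Rplp1, -0.057 to 0.15 for Rps27, -0.0015 to 0.17 for Rps27a and -0.041 to 0.077 for Rpsa, in each with the low end without MS 7.6. The cause was not tested.

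Among the ratios of paralogs, leaving out each mouse gave 0.20 to 0.35 for Rpl3l over Rpl3, -0.060 to 0.11 for Rpl7l1 over Rpl7, -0.012 to 0.069 for Rpl22l1 over Rpl22 and -0.047 to 0.10 for Rps27l over Rps27. The low ends were without MS 7.2, MS 5.3, control 8.4 and MS 5.3. The difference for Rpl3l was 0.12 with normexp and 0.13 in row 2. The difference for Rpl7l1 was -0.017 with the mean of all probes and -0.013 in row 2. For Rpl22l1 it was -0.022 in the authors' table. For Rps27l it was -0.016 with normexp, -0.035 with the mean of all probes and -0.13 in row 2. Scalings, filters and variance models that leave a ratio within an array as it is were not run for it.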
